A study of Mus musculus with 11 samples.

Results

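Cytochrome P450 enzymes of the drug- and steroid-metabolising subfamilies were followed in mouse liver under a chow diet, a diet rich in fat, or that rich diet ended by a fast. The members are the 7 genes Cyp3a11, Cyp2c29, Cyp2c37, Cyp2d22, Cyp2d26, Cyp2e1 and Cyp2b13, taken by gene symbol from the array's table of spots and genes. The array carries 56 cytochrome P450 genes and 13406 genes with a single symbol in all. Each member has 1 spot, and all 7 could be tested among the 3558 genes with enough values. The mice were C57/BL/6J animals, with sex and age not given in the sources used here. Control mice ate Purina Rodent Chow for 10 weeks, which held 23% protein, 6.5% fat and 49% carbohydrate at 3.5 kcal/g. High-fat mice ate a specialty diet for the same time, which held 15.02% protein, 42.16% fat and 42.81% carbohydrate at 4.53 kcal/g. Fasted mice ate this diet too and had no food for the last 48 h, so every fasted mouse carries both treatments and no chow-fed mouse was fasted. The study groups held 9, 5 and 4 mice per the labels, of which 4 control, 4 high-fat and 3 fasted mice have an array here.

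Cytochrome P450 enzymes are haem proteins of the endoplasmic reticulum that insert a single oxygen atom into drugs, steroids, bile acids and fatty acids, with electrons passed on by P450 reductase. In the liver they are made by hepatocytes, most strongly in those around the central vein. Genes of the Cyp3a, Cyp2c and Cyp2b subfamilies are known targets of the xenobiotic receptors PXR (gene Nr1i2) and CAR (gene Nr1i3), and their basal transcription depends on liver factors such as HNF4A. Cyp2e1 is known for its regulation by fasting, ketone bodies and insulin, much of it at the level of the protein, which these arrays did not measure.

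The genes lie in clusters of near relatives. Cyp2c29 and Cyp2c37 are both on chromosome 19, with 6 protein-coding genes between them, and all 6 are Cyp genes. Cyp2d22 and Cyp2d26 are both on chromosome 15, with 7 protein-coding genes between them, of which 6 are Cyp genes. The sequences of the spotted probes are not used here, so how far a spot also detects RNA of a related gene was not tested. Promoters of 4 members are shown because 3 of these genes fell together after the diet, while the other, Cyp2b13, also holds CAAAGTC and was not called. Each is the 250 bases before the transcription start, from RefSeq on build GRCm38.p6, at chr5:145879855-145880104 (minus strand) for Cyp3a11, chr19:39286835-39287084 (plus strand) for Cyp2c29, chr19:39992174-39992423 (plus strand) for Cyp2c37 and chr7:26061245-26061494 (plus strand) for Cyp2b13. They are written 5′ to 3′ in the direction of transcription. Capitals mark 3 motifs searched on both strands and chosen with the sequences in view: AGGTCA and AGTTCA, core letters bound by many nuclear receptors, and CAAAGTC, a core of HNF4A sites.
Cyp3a11: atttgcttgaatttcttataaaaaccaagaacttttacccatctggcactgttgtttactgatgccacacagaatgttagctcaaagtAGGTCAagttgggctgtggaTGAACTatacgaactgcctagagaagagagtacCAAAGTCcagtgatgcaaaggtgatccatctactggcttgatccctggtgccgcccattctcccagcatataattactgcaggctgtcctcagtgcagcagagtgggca
Cyp2c29: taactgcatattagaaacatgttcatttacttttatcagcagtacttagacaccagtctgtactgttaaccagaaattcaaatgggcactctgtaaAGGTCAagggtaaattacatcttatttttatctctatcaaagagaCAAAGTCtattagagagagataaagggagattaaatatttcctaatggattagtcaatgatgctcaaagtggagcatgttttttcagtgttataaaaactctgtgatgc
Cyp2c37: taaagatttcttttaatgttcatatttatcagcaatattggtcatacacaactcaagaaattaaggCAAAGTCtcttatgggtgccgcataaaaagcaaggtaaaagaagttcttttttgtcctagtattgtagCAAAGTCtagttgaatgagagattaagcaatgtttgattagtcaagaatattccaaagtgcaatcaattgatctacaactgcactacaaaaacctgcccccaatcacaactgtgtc
Cyp2b13: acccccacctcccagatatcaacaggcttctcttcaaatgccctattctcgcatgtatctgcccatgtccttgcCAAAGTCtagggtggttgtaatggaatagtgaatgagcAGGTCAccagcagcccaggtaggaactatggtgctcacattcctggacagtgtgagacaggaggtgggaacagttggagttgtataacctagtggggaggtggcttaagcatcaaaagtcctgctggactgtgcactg

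CAAAGTC lay 109 to 103 bases before the start in Cyp3a11 and 109 to 103 bases before it in Cyp2c29. In Cyp2c37 it occurred at 184 to 178 and at 116 to 110 bases before the start, and in Cyp2b13 at 176 to 170. Of 32851 promoter windows of the same length, 3.84% hold CAAAGTC. The letters AGGTCA lay 162 to 157 bases before the start in Cyp3a11, 154 to 149 in Cyp2c29 and 138 to 133 in Cyp2b13, and 14.0% of windows hold it. AGTTCA matched in Cyp3a11 alone among the 6 members with a promoter entry, on the minus strand at 142 to 137 bases before the start, where it is read as TGAACT in the printed strand, and 11.8% of windows hold it. The windows of Cyp2d26 and Cyp2e1 hold none of these letters, which says nothing about the factors. Cyp2d22 is the member not matched. Aligned over 250 bases, the Cyp2c29 and Cyp2c37 windows were identical at 60.0% of positions, with a longest shared run of 10 bases. The other pairs of members were identical at 48.4% to 57.6%, and runs of 10 bases were also shared by Cyp3a11 and Cyp2c29 and by Cyp2c37 and Cyp2b13. These matches are descriptions of letters, and no binding was measured.

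Each array compared liver RNA labelled with Cy5 with Stratagene Universal Mouse Reference RNA labelled with Cy3. A value is the log ratio of liver over reference, taken as log2, and each array was centred on its median, so a value of 0 is the middle of that array. Levels of different genes cannot be set against each other on this scale, because each depends on the reference RNA. Between 3864 and 5567 of 17280 spots per array held a value. High-fat array 4 was left out, since its correlation with every other array lay between -0.03 and 0.01, against 0.69 to 0.94 among the other 10 arrays. It held deposited values for 3 members. The spread of values within an array, as the median absolute deviation, was 0.43 to 0.52 in control, 0.26 to 0.39 in high-fat and 0.44 to 0.49 in fasted livers. Results are therefore also given after each array was scaled to 1 common spread, which multiplied the high-fat values by 1.10 to 1.65. The mean of 12 hepatocyte markers stood above the middle on all 10 arrays, at 1.44 to 2.48 in control, 1.08 to 1.44 in high-fat and 1.18 to 1.30 in fasted livers. With centred arrays the highest mean was that of control array 2, and with scaled arrays that of high-fat array 1, at 2.39 against 2.05 on control array 2. Of 60 markers of other liver and blood cells, 14 to 22 held a value on an array. The 8 filled on all 10 arrays averaged -0.18 to 0.08 in control, 0.01 to 0.16 in high-fat and 0.07 to 0.13 in fasted livers.

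**Figure D1:**
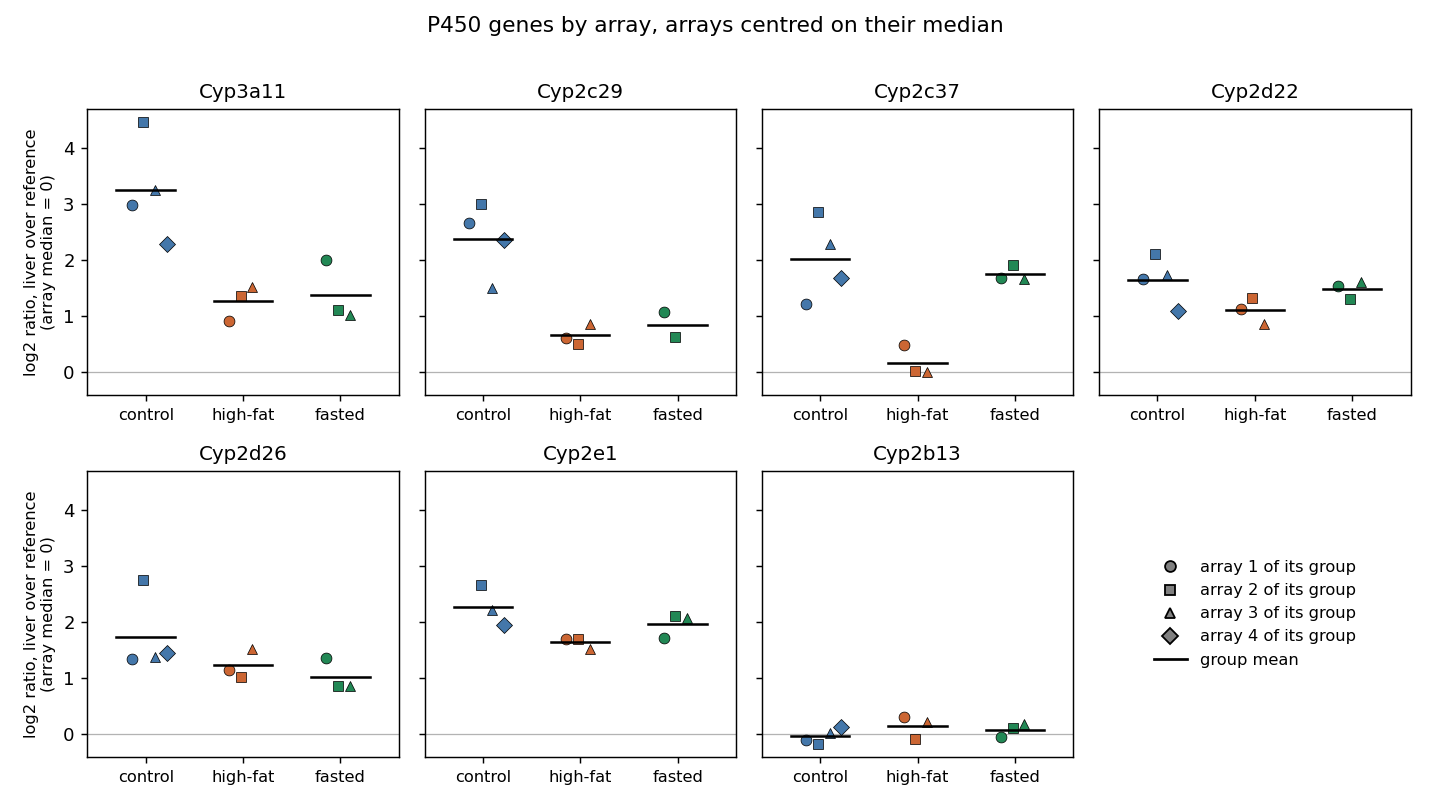
Log2 ratio of liver over reference RNA for the 7 genes on each array, with the array median at 0. Points are arrays, marker shapes give the array's number within its group and lines are group means. Cyp3a11 and Cyp2c29 were lower in both diet groups than in all 4 control arrays, Cyp2c37 was near 0 in the high-fat group and between 1.67 and 1.91 in the fasted group, and Cyp2b13 stayed near 0.

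Cyp3a11, the leading Cyp3a enzyme of mouse liver and a hydroxylase of steroids, bile acids and many drugs, read 2.99, 4.47, 3.25 and 2.29 on control arrays 1 to 4. It read 0.92, 1.37 and 1.52 on the high-fat arrays and 2.00, 1.11 and 1.03 on the fasted arrays. All control values lay above all values of both diet groups, and the diet groups overlapped. In bulk liver, fewer hepatocytes and less RNA per hepatocyte cannot be told apart, here and for every member. The level was 3.25 ± 0.91 (SD, n = 4) in control, 1.27 ± 0.31 (SD, n = 3) in high-fat and 1.38 ± 0.54 (SD, n = 3) in fasted livers. On control array 2 Cyp3a11 ranked 2 from the top of all filled genes, and its rank was 2 to 32 over the control arrays. The rank was 108 to 226 in high-fat and 54 to 384 in fasted livers, so the gene stayed at percentile 90.2 or above on every array. Ranks and percentiles, here and below, order ratios over the reference among the filled genes, not amounts of RNA.

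The fasted values of the Cyp2c genes lay differently beside the other groups, and the difference between these genes was not tested. Cyp2c29, an epoxygenase of arachidonic acid that phenobarbital induces, read 2.66, 3.01, 1.51 and 2.37 in control, 0.62, 0.51 and 0.87 in high-fat, and 1.07 and 0.63 in fasted livers, with fasted array 3 empty. Every control value lay above every value of the diet groups. Cyp2c37, a hydroxylase of arachidonic acid in the same gene cluster, read 1.22, 2.86, 2.29 and 1.69 in control livers. It read 0.48, 0.02 and 0.00 in high-fat and 1.68, 1.91 and 1.67 in fasted livers. The high-fat values lay below those of both other groups, and the fasted values fell within the control range. Means were 2.02 ± 0.71 (SD, n = 4), 0.17 ± 0.27 (SD, n = 3) and 1.75 ± 0.14 (SD, n = 3) in control, high-fat and fasted livers. Among the genes of its own array, Cyp2c37 was at percentile 94.0 to 98.5 in control livers, 50.6 to 86.7 in high-fat livers and 96.0 to 98.0 in fasted livers. This position within an array does not depend on centring or scaling.

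Cyp2d22, a liver Cyp2d enzyme, read 1.67, 2.12, 1.73 and 1.10 in control, 1.13, 1.33 and 0.86 in high-fat and 1.54, 1.30 and 1.61 in fasted livers, and the 3 groups overlapped. Cyp2d26, another liver Cyp2d enzyme, read 1.34, 2.75, 1.38 and 1.45 in control, 1.14, 1.02 and 1.52 in high-fat and 1.35, 0.86 and 0.85 in fasted livers. Control array 2 stood apart from the other control arrays for this gene, and with centred arrays it is also the one with the highest mean of the hepatocyte markers. What that array adds to the control mean of Cyp2d26 is seen by leaving it out: the high-fat minus control difference was -0.50 with it and -0.16 without it.

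Cyp2e1, which oxidises ethanol, acetone and paracetamol, read 2.66, 2.22 and 1.94 on control arrays 2 to 4, with control array 1 empty. It read 1.70, 1.69 and 1.51 in high-fat and 1.72, 2.11 and 2.07 in fasted livers. The centred high-fat values were all below the control values, and all below the fasted values. Its position within the array did not separate the groups, at percentile 97.5 to 98.5 in control, 97.5 to 98.9 in high-fat and 97.8 to 98.6 in fasted livers. Cyp2b13, a Cyp2b enzyme known to be higher in female than in male mouse liver, read -0.11, -0.18, 0.01 and 0.13 in control, 0.31, -0.09 and 0.21 in high-fat and -0.05, 0.11 and 0.17 in fasted livers. Its values lay near the array median and the groups overlapped.

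**Figure D2:**
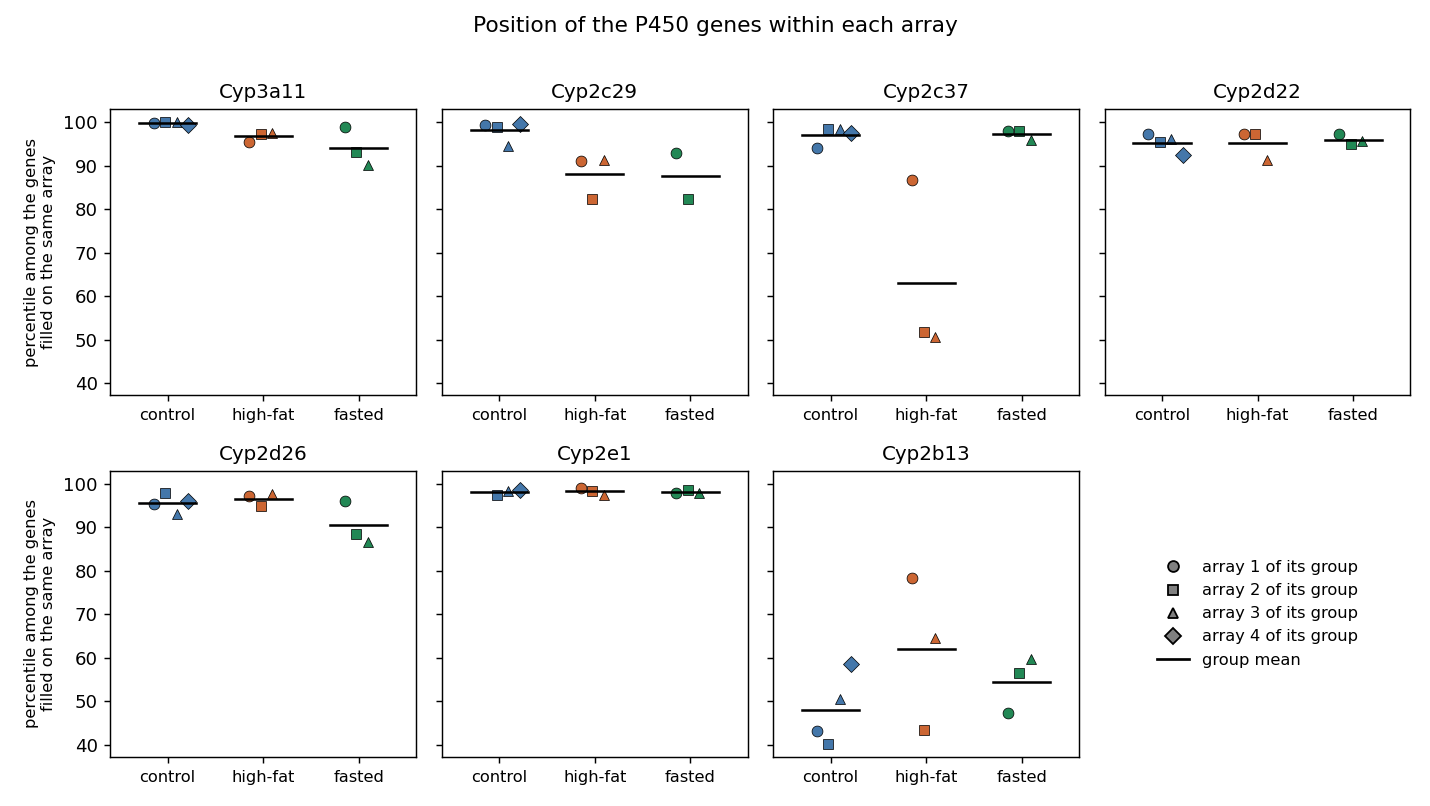
Percentile of each gene's ratio over reference among all genes filled on the same array, by group, with lines at group means. Cyp2e1 was at percentile 97.5 to 98.9 on all 9 arrays that hold it, whereas Cyp2c37 dropped to 50.6 to 86.7 in the high-fat group.

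Livers of the high-fat group were first set against those of the chow group, both fed until harvest. Of the 7 genes, 3 fell and 0 rose at an adjusted p under 0.05 (limma, Benjamini-Hochberg over all 3558 genes). Of all tested genes 1.97% fell, 2.95% rose and 4.92% were called in either direction. Cyp3a11 changed by -1.98 ± 0.41 (SE, adjusted p = 0.0253), Cyp2c37 by -1.85 ± 0.31 (adjusted p = 0.0132) and Cyp2c29 by -1.72 ± 0.29 (adjusted p = 0.0147). On centred arrays these were the 3 lowest changes among the 3558 genes, and with scaled arrays they ranked 7 (Cyp3a11), 8 (Cyp2c29) and 2 (Cyp2c37) from the lowest. The members were chosen with earlier results of these data known, so their ranks and shares, here and below, are descriptions. The arrays of the groups did not overlap for these 3 genes and for Cyp2e1, 4 of 7 genes lower in this way, against 8.77% of all genes. The remaining 4 genes were not called: Cyp2e1 at -0.64 ± 0.19 (adjusted p = 0.0717), Cyp2d22 at -0.55 ± 0.21 (adjusted p = 0.134), Cyp2d26 at -0.50 ± 0.30 (adjusted p = 0.323) and Cyp2b13 at 0.18 ± 0.14 (adjusted p = 0.436). The median change was -0.64 over the 7 genes and 0.08 over all genes. With arrays scaled to 1 spread the same 3 genes fell, against 0.675% of all genes, and the same 3 lay below control without overlap, against 5.2%: Cyp2c37 by -1.54 (adjusted p = 0.0169), Cyp3a11 by -1.35 (adjusted p = 0.0352) and Cyp2c29 by -1.35 (adjusted p = 0.0358). Scaling brought Cyp2d22 to -0.05, turned the sign of Cyp2d26 to 0.02 and of Cyp2e1 to 0.13, and left Cyp2b13 at 0.24. The median over the 7 genes was then -0.05. The differences of the Cyp2d genes and Cyp2e1 thus depended on the scaling. Single arrays decide some calls. Without high-fat array 2, which leaves 2 high-fat arrays, Cyp3a11 (adjusted p = 0.0891), Cyp2c29 (0.0623) and Cyp2c37 (0.0516) all missed the threshold at changes of -2.03, -1.64 and -1.78. Cyp3a11 also missed it without high-fat array 1 (adjusted p = 0.0596), high-fat array 3 (0.0567) or control array 3 (0.0522), and in a fit of these 2 groups alone (0.0587). Without control array 4, Cyp2d22 at -0.73 (adjusted p = 0.0366) and Cyp2e1 at -0.81 (adjusted p = 0.0372) passed it too. These fits used centred arrays. With scaled arrays Cyp2c29 missed the threshold without control array 1 (adjusted p = 0.0804), control array 2 (0.0777) or control array 4 (0.0729). It also missed it with all 11 arrays scaled (0.0649). With 1 array left out and the arrays scaled, as few as 0 members were called, so Cyp3a11 and Cyp2c37 lost their calls too. The highest adjusted p over all alternatives was 0.0917 for Cyp3a11, 0.115 for Cyp2c29 and 0.0554 for Cyp2c37. Counting all alternatives, Cyp2c37 was called in 31 of 33 settings, Cyp3a11 in 22 of 33 and Cyp2c29 in 21 of 28, each with the same sign throughout. One of these settings, centring on hepatocyte markers, gave all genes 1 common spread, so a gene's own spread does not enter its calls.

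**Figure D3:**
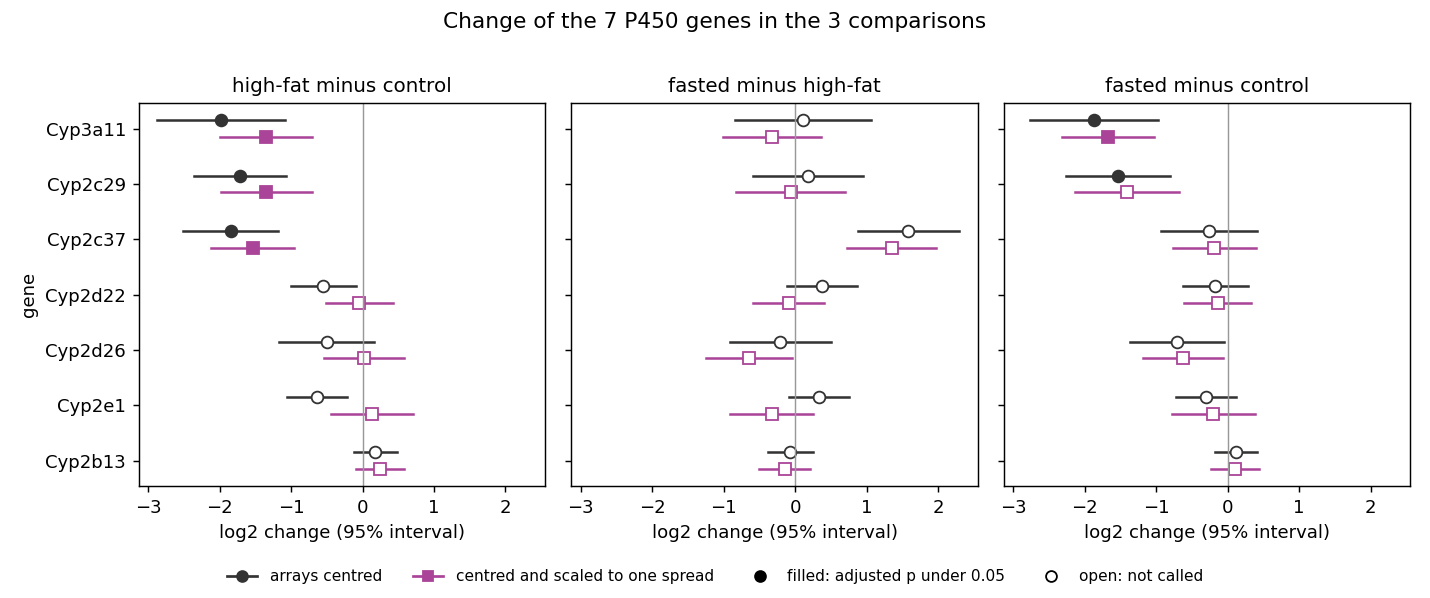
Log2 change of each gene in the 3 comparisons, with 95% intervals from the fit. Black circles are centred arrays, purple squares arrays also scaled to 1 spread, and filled symbols have an adjusted p under 0.05. Cyp3a11, Cyp2c29 and Cyp2c37 were called in high-fat minus control on both scales, and the intervals of Cyp2c37 in fasted minus high-fat lay above 0 without a call.

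The second comparison asks what the 48 h fast changed in mice already on the diet. None of the 7 genes was called by limma, 0 against 0.365% of all genes, and 1 of the 7 had an unadjusted p under 0.05, against 14.6% of all genes. That gene was Cyp2c37, at 1.59 ± 0.33 (SE, 95% interval 0.87 to 2.30, adjusted p = 0.0685), a difference of 3.00-fold. It ranked 5 from the highest of the 3558 changes, and all 3 fasted arrays were above all 3 high-fat arrays. With scaled arrays the change was 1.35 (adjusted p = 0.0850), again without overlap, against 6.46% of all genes, and 0 of the 7 genes were called, against 0.422%. Cyp2c37 passed the threshold in 7 of 33 settings, among them quantile normalisation (1.47, adjusted p = 0.0163), a fit of these 2 groups alone (1.59, adjusted p = 0.00607) and the fits without control array 1 (adjusted p = 0.0442) or control array 2 (adjusted p = 0.0117), and its adjusted p ran from 0.00607 to 0.321 over the settings other than centring on hepatocyte markers. That last setting, which gave all genes 1 common spread, is among the 7. Cyp2e1, at 0.33 ± 0.19 (adjusted p = 0.419), was the other gene without overlap, 2 of 7 against 11.1% of all genes, and scaling turned it to -0.33. For Cyp3a11 the difference was 0.11 with a 95% interval of -0.85 to 1.07, and for Cyp2c29 0.18 with an interval of -0.59 to 0.95, so neither a rise nor a further fall of moderate size could be told from 0. Cyp2d22 was at 0.38, Cyp2d26 at -0.21 and Cyp2b13 at -0.07, with adjusted p of 0.436 to 0.862. With scaled arrays 2 of the 7 genes had an unadjusted p under 0.05, against 9.75% of all genes: Cyp2c37 and Cyp2d26, the latter at -0.64 (unadjusted p = 0.0384 by limma, adjusted p = 0.483).

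The third comparison sets fasted mice after the diet against fed mice on chow, so diet and fast differ together. Its control arrays are those of the first comparison. Cyp3a11 fell by 1.87 on the log2 scale (SE 0.41, adjusted p = 0.0336) and Cyp2c29 by 1.54 (SE 0.33, adjusted p = 0.0346), 2 of 7 genes, while 1.04% of all genes fell and 3.2% were called in either direction. The arrays of these 2 genes did not overlap, against 9.58% of all genes. Cyp2c37 differed by -0.26 with a 95% interval of -0.93 to 0.41 (adjusted p = 0.670). Cyp2d26 was at -0.71 ± 0.30 (adjusted p = 0.216), Cyp2e1 at -0.31 (0.391), Cyp2d22 at -0.17 (0.684) and Cyp2b13 at 0.11 (0.676). With scaled arrays only Cyp3a11 was called, at -1.67 (adjusted p = 0.0428), against 0.0562% of all genes, and Cyp2c29 at -1.41 missed the threshold (adjusted p = 0.0812). Both still lay below control without overlap, against 9.87%. Of 16 tested markers of other cells, 2 rose and 0 fell in the same comparison, against 2.16% of all genes that rose. These were Kdr, an endothelial receptor, at 0.90 (adjusted p = 0.0181) and Cd163, a macrophage receptor, at 0.66 (adjusted p = 0.0487). The other tested endothelial marker, Tie1, was at -0.09. The other tested macrophage markers were C1qc at 0.17 and H2-Aa at -0.52, so neither list moved as a whole. With scaled arrays Kdr was at 0.83 (adjusted p = 0.0507) and Cd163 at 0.62 (adjusted p = 0.0979), and 0 were called. In high-fat minus control 0 of the 16 were called, with Kdr at 0.40 (adjusted p = 0.121) and Cd163 at 0.44 (adjusted p = 0.118). Their part in the differences of the P450 genes was not tested. The calls rest on few arrays. Cyp3a11 missed the threshold without control array 1 (adjusted p = 0.0578), control array 3 (0.0638), fasted array 1 (0.0754), fasted array 2 (0.130) or fasted array 3 (0.103), and Cyp2c29 missed it without control array 1 (0.0721). Cyp2c29 could not be fitted without fasted array 1 or 2, where a single fasted array holds it. Cyp3a11 and Cyp2c29 also missed the threshold with all 11 arrays (adjusted p = 0.0649 and 0.0715), in a fit of these 2 groups alone (0.0759 and 0.0793) and with robust shrinkage (0.0594 and 0.0505). With quantile normalisation Cyp2c29 was at -1.28 (adjusted p = 0.0589). Over all alternatives Cyp3a11 was called in 17 of 33 settings, with an adjusted p up to 0.210. Cyp2c29 was called in 12 of 28, with an adjusted p up to 0.164. Among these settings is centring on hepatocyte markers, which gave all genes 1 common spread.

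To set the members beside other hepatocyte RNAs, each gene was also set against the mean of the 12 hepatocyte markers on the same array. This reference was chosen with the data in view. Centred on the array median, the 12 markers had a median change of -0.50 in high-fat minus control and -0.55 in fasted minus control, and with scaled arrays of 0.16 and -0.46. On centred arrays Apoa1 was itself called as fallen in high-fat minus control, at -1.005 (limma, adjusted p = 0.0480). Ttr was called as fallen in fasted minus control, at -1.38 (adjusted p = 0.0216). With scaled arrays 0 of the 12 were called, and the marker mean is no fixed level. Cyp3a11 stood 0.85 to 1.99 above the marker mean in control livers, -0.52 to 0.29 from it in high-fat livers and -0.27 to 0.78 in fasted livers. Cyp2c37 stood -0.26 to 0.77 from it in control, -1.39 to -0.96 in high-fat and 0.37 to 0.73 in fasted livers. Cyp2c29 stood at -0.01 to 1.18, -0.82 to -0.52 and -0.55 to -0.15 in the same order. The 3 genes thus lay below the control range in the high-fat group against this reference also, as did 1.24% of 3546 genes. High-fat minus control was -1.56 for Cyp3a11, -1.42 for Cyp2c37 and -1.30 for Cyp2c29 on this reference. With scaled arrays it was -1.50, -1.70 and -1.50 in the same order, again without overlap, as for 3.21% of genes. Fasted minus high-fat was 1.66 for Cyp2c37, with no overlap, as for 11.4% of genes. With scaled arrays it was 1.94, and Cyp2c29 (0.53) and Cyp2b13 (0.45) were then also higher without overlap, as were 39.5% of genes. Fasted minus control was -1.37 for Cyp3a11 and -1.01 for Cyp2c29, without overlap for either, as for 0.395% of genes. With scaled arrays these were -1.24 and -0.97, without overlap, as for 0.423% of genes. On this reference Cyp2d22, Cyp2d26 and Cyp2e1 overlapped between groups in all 3 comparisons, scaled or not. Cyp2b13 was higher than control in both diet groups with no overlap, as were 30.6% of genes in high-fat and 38.9% in fasted livers. With scaled arrays it overlapped between high-fat and control, at a difference of 0.09, and was higher without overlap in fasted livers, at 0.53, as were 45% of genes. A fit with arrays centred on the markers gave all genes 1 common spread, so no p is given here for changes against this reference.

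**Figure D4:**
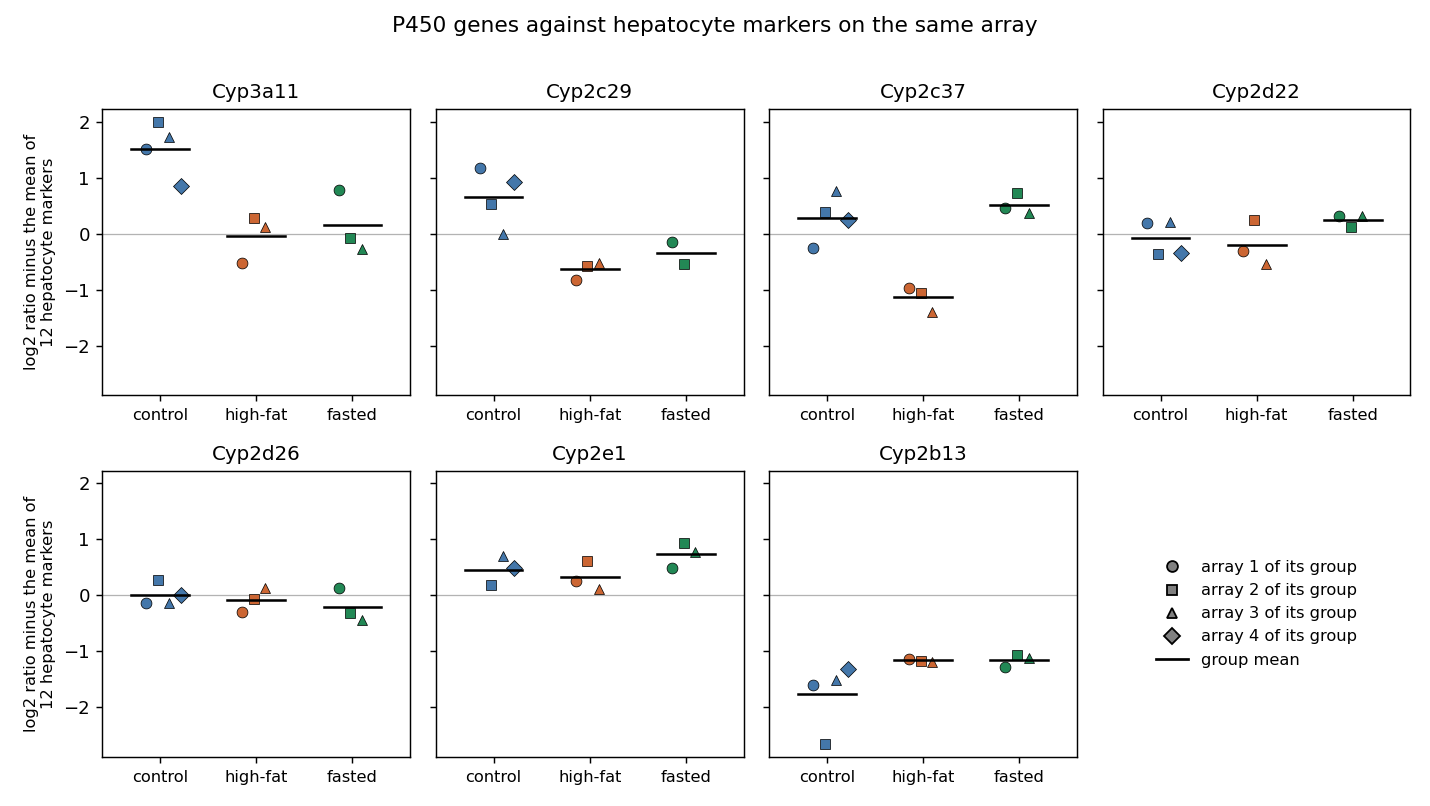
Log2 ratio of each gene minus the mean of 12 hepatocyte markers on the same array, by group, with lines at group means. Cyp2c37 lay between -1.39 and -0.96 in the high-fat group and between 0.37 and 0.73 in the fasted group, while Cyp2d26 and Cyp2e1 overlapped in all groups.

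Differences between members on the same array do not depend on how arrays are centred. The size of such a difference has no meaning, since it carries both reference levels, and only its change between groups can be read. Cyp2c37 minus Cyp2e1, a pair chosen after the values were seen, was 0.20, 0.07 and -0.25 on control arrays 2 to 4. It was -1.22, -1.67 and -1.51 on the high-fat arrays and -0.04, -0.20 and -0.40 on the fasted arrays. The highest high-fat value, -1.22, lay below the lowest of the others, -0.40. Cyp3a11 minus Cyp2c37 was 1.77, 1.61, 0.96 and 0.60 in control, 0.44, 1.35 and 1.52 in high-fat and 0.32, -0.80 and -0.64 in fasted livers. The fasted arrays were the lowest, without overlap, and with scaled arrays too the fasted values (-0.78 to 0.29) lay below all others. Cyp2c29 minus Cyp2c37 was 0.14 to 0.87 in high-fat livers and -1.28 to -0.61 in fasted livers, the latter on 2 arrays. The control range, -0.78 to 1.44, overlapped both. These pair differences were given no test.

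Across the 10 arrays, Cyp3a11 and Cyp2c29 followed each other with Pearson r = 0.87 over the 9 arrays that hold both (0.84 with scaled arrays). Cyp3a11 and Cyp2c37 had r = 0.65 over 10 arrays (0.44 scaled), and Cyp2c29 and Cyp2c37 r = 0.61 over 9 arrays (0.47 scaled). For Cyp2c37 and Cyp2e1 r was 0.89 over 9 arrays but 0.04 with scaled arrays. All these values share the arrays, their spread and their group means, so they are descriptions. Among 2016 genes filled on all 10 arrays, the patterns most like Cyp3a11 were those of Traf4 (r = 0.96), Capg (0.95) and Ctdsp1 (0.94), with 0.95, 0.78 and 0.86 on scaled arrays. Those most like Cyp2c37 were Sephs2 (0.88), Klrg2 (0.88) and Ctnna1 (0.88), with 0.77, 0.75 and 0.82 scaled. For Cyp2d22 they were Lta (0.93), Slc29a3 (0.87) and Nrbp1 (0.87), with 0.88, 0.44 and 0.43 scaled. For Cyp2d26 they were Tectb (0.95), Ces1g (0.94) and Derl3 (0.93), with 0.77, 0.82 and 0.75 scaled. What control array 2, which stood apart for Cyp2d26, adds to these r was not tested. For Cyp2b13 they were Pik3cb (0.90), Fto (0.86) and Ccl19 (0.86), with 0.86, 0.84 and 0.77 scaled. Cyp2c29 and Cyp2e1 were not filled on all 10 arrays.

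The other genes of the pathway were thinly measured. Of the 49 other P450 genes on the array, 23 held no value on any of the 10 arrays, 7 were tested and 0 were called in any comparison. Their median change was -0.08 in high-fat minus control, against 0.08 over all genes. On centred arrays its ends were Cyp46a1, the cholesterol hydroxylase of brain, at 0.49 (adjusted p = 0.160), and Cyp21a1, the steroid hydroxylase of adrenal, at -0.30 (adjusted p = 0.295). Both are genes of other organs. With scaled arrays the ends were Cyp4f16 at 0.47 (adjusted p = 0.258) and Cyp4f13 at -0.29 (adjusted p = 0.310), both of the Cyp4f subfamily, while Cyp46a1 was at 0.25 and Cyp21a1 at -0.26. The remaining 19 were filled on too few arrays to be tested. Of the 26 filled anywhere, 8 held values on control arrays only, 30.8% against 11.1% of the 6390 genes with a symbol that were filled anywhere. These 8 were Cyp24a1, Cyp2b10, Cyp2b9, Cyp2c40, Cyp39a1, Cyp3a13, Cyp4f14 and Cyp7b1, named after their values were seen, on 1 to 3 control arrays each. All but Cyp2b10 held a value on control array 2, and 2 of them, Cyp24a1 and Cyp39a1, held it there alone. That array had the most filled spots, 5567, and values for 21 of the other P450 genes, against 7 to 17 on the other arrays used. The control group also has 4 arrays, against 3 in each other group. The rule that left cells empty is not given in the sources used here, so an empty cell is no level. Cyp8b1, the sterol hydroxylase of cholic acid synthesis, read 4.14 and 2.98 on control arrays 2 and 3, 0.83 on high-fat array 1 and 2.07 and 1.42 on fasted arrays 1 and 2. Cyp4a14, a fatty acid hydroxylase and PPARA target, read 1.95 and 0.93 on control arrays 2 and 4, 1.17 on high-fat array 3 and 1.75, 1.99 and 1.75 on the fasted arrays. Both were also chosen after their values were seen, and neither could be tested.

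Partners of the P450 enzymes and genes of haem synthesis could not be followed, as 0 of 16 on the array had enough values. Of 36 regulators on the array 7 were tested and 0 were called in any comparison, with a median change of 0.24 in high-fat minus control (0.19 with scaled arrays). The 7, without the genes of CAR and HNF4A, were Nr1i2, Cebpa, Cebpb, Foxo1, Dbp, Stat3 and Tcf7l2. On centred arrays the highest change among them was that of Nr1i2, the gene of PXR, at 0.43 ± 0.19 (limma, adjusted p = 0.194), and the lowest that of Tcf7l2, a partner of beta-catenin, at -0.26 ± 0.15 (adjusted p = 0.309). With scaled arrays Nr1i2 was at 0.23 (adjusted p = 0.549) and Tcf7l2 at 0.07 (adjusted p = 0.890), and the ends were Foxo1, a transcription factor held back by insulin, at 0.42 (adjusted p = 0.0662) and Stat3, a factor of cytokine signalling, at -0.21 (adjusted p = 0.553). Nr1i2 read -0.86 ± 0.28 (SD, n = 3) in control, -0.43 ± 0.26 (SD, n = 3) in high-fat and -0.81 ± 0.23 (SD, n = 3) in fasted livers. Of 6 tested pericentral hepatocyte genes other than the members, 2 fell after the diet and 0 rose, against 1.97% of all genes that fell (0.675% with scaled arrays). These were Aldh1a1, a retinal dehydrogenase, at -1.54 (adjusted p = 0.0253) and Ces1c, a carboxylesterase, at -1.43 (adjusted p = 0.0432). With scaled arrays both fell as well, at -1.13 (adjusted p = 0.0385) and -1.25 (adjusted p = 0.0424). This list too was chosen with earlier results of these data known, so its shares are descriptions. The median of the 6 genes was -0.49, or -0.04 with scaled arrays. Of 3 tested periportal genes 0 were called, with a median change of -0.60, or 0.03 with scaled arrays. In this comparison 3 of the 6 pericentral genes (2 scaled) had an unadjusted p under 0.05 by limma, against 25.2% of all genes (19.2% scaled). So did 1 of the 3 periportal genes on both scales, Pigr, at -0.68 (adjusted p = 0.0684), or -0.66 scaled (adjusted p = 0.0923). In fasted minus control 0 of the 6 pericentral and 0 of the 3 periportal genes were called by limma. The pericentral median was then -0.86 (-0.76 with scaled arrays), and 4 of the 6 had an unadjusted p under 0.05, against 20.4% of all genes. The periportal median was -0.50 (-0.40 with scaled arrays), and 0 of the 3 had an unadjusted p under 0.05.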

How the data were processed

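Liver RNA of 11 mice was measured on 2-colour arrays. The authors deposited log ratios (liver to reference), read here as log2. Their base, normalisation, background correction and rule for empty cells were not stated in the sources used here, and intensities are not used here. Each of 10 arrays was centred on its median, and high-fat array 4 was left out. Spots of 1 symbol were averaged. Genes with 2 or more filled arrays per group were fitted with limma 3.58.1 (R 4.3.3), two-sided, with 1 mean per group and Benjamini-Hochberg adjustment within a contrast. The script was tested on simulated data. Named are all members, and from each pathway list the genes called or else the extremes of high-fat minus control. The members and lists were chosen with earlier results of these data known. Each array is from 1 mouse per the labels. The number of arrays limits the precision. Alternatives were scaling, normalisation, filters, fits and leaving out each array. Same-numbered mice were not taken as pairs: 3 of 9 pairs had a correlation over 0.1. These 3 were all the pairs of arrays numbered 1, at 0.12 to 0.15, and why was not tested.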

Additional observations from a re-analysis of the deposited data

Results flagged for a closer look

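Cyp2d26 on control array 2 read 2.75 with arrays centred, far above the other 3 control arrays at 1.34 to 1.45. Its gap to the nearest array was 0.92 of the range of the group, above Dixon's 95% critical value for 4 samples, which chance passes in about 1 in 20 groups. With scaled arrays the ratio was 0.76, under the critical value. The rule was run on every member with values on all 4 control arrays, on both scales, and no other set passed it.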

How the results depend on the processing

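Each result was computed under up to 33 alternatives. The members called in high-fat minus control were 3 as reported and 0 to 5 when 1 array was left out, or 0 to 3 with arrays also scaled. In fasted minus high-fat the count was 0 as reported and 1 with quantile normalisation, with values as deposited, with the 2 groups alone in the fit and with arrays centred on hepatocyte markers, and it was 0 to 1 with 1 array left out, scaled or not. In fasted minus control it was 2 as reported, 1 with scaled arrays, with quantile normalisation, with a value required on every array and with hepatocyte markers as the centre, and 0 with all 11 arrays (scaled or not), with the 2 groups alone and with robust shrinkage. It was 0 to 2 with 1 array left out and 0 to 1 with arrays also scaled. With the replicate number as a block, 3, 0 and 1 members were called in the 3 comparisons. The numbers were not taken to pair the mice: the correlation of same-numbered arrays was -0.17 to 0.15, and 3 of 10 arrays correlated best with their own number. The call lost was Cyp2c29 in fasted minus control, at -1.71 (adjusted p = 0.0590), and the block changed no other call. Centring on hepatocyte markers gave all genes 1 common spread, so its counts do not reflect the spread of each gene. The cause was not tested.

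No difference called in the reported fits changed sign. The signs that turned belong to differences not called there, of which Cyp2d22 and Cyp2e1 in high-fat minus control were called without control array 4. With scaled arrays, high-fat minus control was 0.020 for Cyp2d26 and 0.13 for Cyp2e1, and fasted minus high-fat was -0.32 for Cyp3a11, -0.062 for Cyp2c29, -0.090 for Cyp2d22 and -0.33 for Cyp2e1. With all 11 arrays scaled these were 0.019 and 0.13, and -0.071 for Cyp3a11, -0.062 for Cyp2c29 and -0.33 for Cyp2e1. With quantile normalisation, high-fat minus control was 0.059 for Cyp2d22, 0.14 for Cyp2d26 and 0.058 for Cyp2e1, fasted minus high-fat was -0.17 for Cyp3a11 and -0.034 for Cyp2e1, and fasted minus control was 0.083 for Cyp2d22 and 0.024 for Cyp2e1. With values as deposited, Cyp2b13 was at 0.14 in fasted minus high-fat and Cyp2d22 at 0.01 in fasted minus control. With hepatocyte markers as the centre, fasted minus control was 0.24 for Cyp2c37, 0.33 for Cyp2d22 and 0.27 for Cyp2e1, and fasted minus high-fat 0.0072 for Cyp2b13.

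When each array was left out in turn, with arrays centred and then also scaled, fasted minus high-fat ran from -0.18 to 0.017 and from -0.31 to 0.0071 for Cyp2b13, from 0.11 to 0.29 and from -0.20 to 0.022 for Cyp2c29, from 0.25 to 0.49 and from -0.35 to 0.12 for Cyp2d22, from 0.26 to 0.46 and from -0.58 to 0.0031 for Cyp2e1, and from -0.20 to 0.29 and from -0.60 to -0.14 for Cyp3a11. High-fat minus control ran from -0.73 to -0.39 and from -0.27 to 0.21 for Cyp2d22, from -0.65 to -0.16 and from -0.14 to 0.25 for Cyp2d26, and from -0.81 to -0.45 and from -0.21 to 0.38 for Cyp2e1. Fasted minus control ran from -0.53 to 0.020 and from -0.39 to -0.0033 for Cyp2c37. With intensities not used here, signal over background is unknown.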
